A study of Mus musculus with 16 samples.

Results

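The genes described here are 41 markers and products of the supporting tissue of a tumour: 13 collagen chains, 17 genes of fibroblasts and other matrix proteins, and 11 genes of mural cells, the pericytes and smooth muscle cells that wrap blood vessels. They were taken by symbol from a list chosen with earlier results of these data known. The table they were taken from holds estimated RNA counts for 23224 mouse genes. All 41 were in the table, all 41 passed the filter on low counts, and none was at 0 in any library. Levels are in CPM, a gene's counts per 1e+06 of the scaled library, and comparisons as log2 fold changes with a standard error (SE).

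RNA was taken from neuroendocrine tumours of the pancreas in mice of the RIP1Tag2 line. In this line the rat insulin promoter drives the SV40 T antigens, so that the oncogenes are made in insulin-producing beta cells. Any stroma comes from the same mouse. All mice carried RIP1Tag2 and were taken at an end stage, between 14 and 16 weeks of age. The 16 libraries of polyA RNA form 3 groups. B6 controls (n = 7) were from the C57Bl/6 (B6) background and C3H controls (n = 4) from the C3HeB/Fe background. Controls had been left untreated or given saline for 3 days, and the labels do not say which applies to which library. MK801 libraries (n = 5) came from B6 mice that had the NMDA receptor blocker MK801 at 1 mg/kg by intraperitoneal injection once daily for the last 3 days. The labels do not state that each library is a separate mouse or tumour, and the p-values thus rest on the spread between these libraries, part of which may be technical.

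Fibroblasts secrete the fibrillar collagens, the proteoglycans and glycoproteins that organise the fibrils, and the enzymes that cross-link them. Pericytes sit in the basement membrane of capillaries, which is built on type IV collagen, and are recruited by PDGF-B from endothelial cells acting on PDGFRB. The tumours of RIP1Tag2 mice are known for a dense vasculature with many pericytes.

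Library totals ran from 38561334 to 57013815 estimated counts. Markers of beta cells, which the labelled tumour type has, summed to between 19251 and 125327 CPM. The lowest sum was in B6 control replicate 1, and the other B6 controls ran from 52134 to 87945 CPM. The libraries differed in base composition. A library's GC trend, meaning how its log2 deviation from the mean library ranks against GC content over all genes (Spearman rho), ran from -0.456 to 0.588 in B6 controls, from -0.213 to 0.457 in C3H controls and from -0.294 to 0.169 after MK801. The members had a median GC content of 53.5%, against 49.7% for all genes with a value. MK801 replicate 5 stood lowest of all 16 libraries for 12 of the 17 fibroblast and matrix genes and for 7 of the 13 collagen chains. B6 control replicate 1, the library lowest in beta cell markers, was the highest of 16 for 9 of the 17 fibroblast and matrix genes.

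Per kilobase of transcript, which allows genes to be compared, Sparc was the most abundant member in B6 controls, with a mean of 392 CPM per kb. It encodes a secreted protein that binds collagen. Bgn (biglycan, a small proteoglycan of collagen fibrils) followed at 114 CPM per kb, and then 3 mural genes: Acta2 (smooth muscle actin) at 93.2, Tagln (transgelin, an actin-binding protein) at 60.8 and Rgs5 (a regulator of G protein signalling used as a pericyte marker) at 52.4 CPM per kb. Among collagen chains Col3a1 led with 34.1 CPM per kb, and Col1a2 was at 29.3 against 8.41 for its partner chain Col1a1. The lowest were Cspg4, the NG2 proteoglycan of pericytes, at 0.846 and Notch3, a receptor of mural cells, at 0.579 CPM per kb. The B6 controls alone spanned a wide range: the highest library over the lowest was 2.12 for Sparc, 2.15 for Wisp2 and 39.8 for Notch3. The median of this ratio was 5.63 for collagen chains, 4.19 for fibroblast and matrix genes and 5.27 for mural genes.

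**Figure D1:**
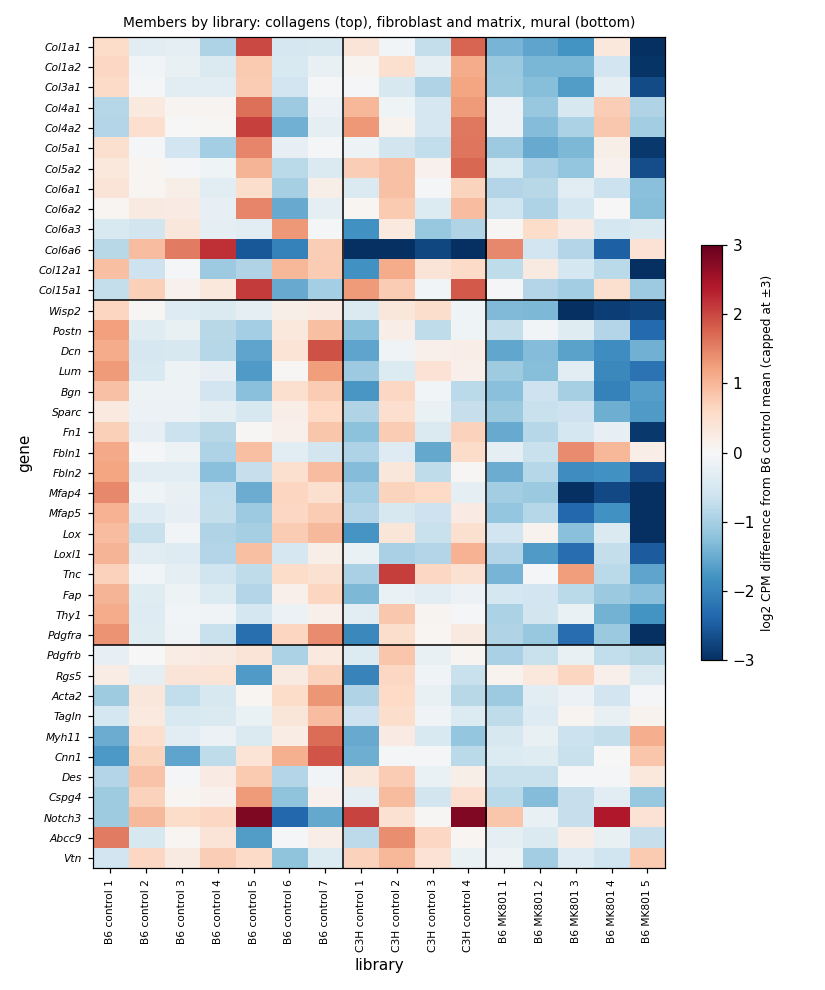
Each row is a member and each column a library, and colour gives the log2 CPM difference from the mean of the B6 controls, capped at 3 in either direction; lines separate the 3 gene classes and the 3 groups. The fibroblast and matrix rows are mostly blue in the 5 MK801 columns, the mural rows are paler there, and the Col6a6 row is dark blue in the 4 C3H columns.

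After MK801, transcripts of fibroblast and matrix genes were lower than in B6 controls in nearly every case, collagen chains were lower by a smaller margin, and mural genes stood closest to the controls. Of the 41 members 38 had a log2 fold change below 0 and 3 above 0, against 53.7% and 46.3% of all 16084 genes tested. Only Wisp2 passed the test over all genes: 1 member fell and 0 rose, where 0.473% of all genes fell and 0.149% rose (0.622% in either direction). At an unadjusted p under 0.05 the test put 21 members lower and 0 higher, against 8.5% and 3.5% of all genes. In tumour tissue, fewer cells of a type and less RNA per cell cannot be told apart.

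The median log2 fold change was -1.39 for the 17 fibroblast and matrix genes, -0.85 for the 13 collagen chains and -0.32 for the 11 mural genes, beside -0.03 for all genes. Of the 21 members below an unadjusted p of 0.05, 14 were fibroblast and matrix genes, 5 were collagen chains and 2 were mural genes. Averaged over the class, the fibroblast and matrix genes lay from -2.27 to -0.80 in the MK801 libraries and from -0.78 to 1.00 in the B6 controls, on a log2 scale relative to the B6 mean. The C3H controls ran from -1.11 to 0.27. Collagen chains averaged -0.86 ± 0.60 (SD, n = 5) after MK801 and 0.00 ± 0.43 (SD, n = 7) in B6 controls. Mural genes averaged -0.24 ± 0.22 (SD, n = 5) after MK801 and 0.00 ± 0.40 (SD, n = 7) in B6 controls. The mural means of the MK801 libraries all lay inside the range of the B6 controls. For fibroblast and matrix genes no MK801 mean reached it, by a narrow margin: -0.797 in MK801 replicate 2 and -0.775 in B6 control replicate 5. By the class median in each library these groups overlapped, with -0.851 in MK801 replicate 2 and -0.89 in B6 control replicate 5. Without MK801 replicate 5 the median log2 fold change of the mural genes was -0.66, and those of fibroblast genes and collagens -1.30 and -0.71. The mural median was -0.57 without MK801 replicate 4.

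**Figure D2:**
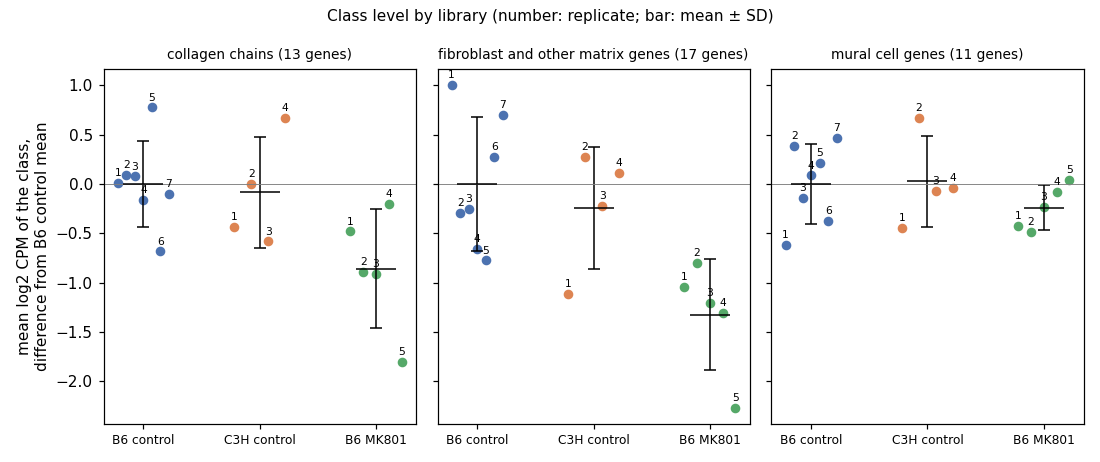
Points are libraries, numbered by replicate, at the mean log2 CPM difference of each class from the B6 control mean, and bars give the mean and SD of the group. In the fibroblast and matrix panel the 5 MK801 points run from -2.27 to -0.80 and lie below all 7 B6 points, whereas in the mural panel they lie among them.

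Wisp2 encodes a secreted protein of the CCN family. It measured 4.63, 4.55, 0.749, 1.59 and 1.66 CPM in MK801 replicates 1 to 5, and ranged from 8.54 through a median of 11.9 to 18.3 CPM in B6 controls. Every MK801 library lay below every control of either strain, since C3H controls were at 8.64, 14.8, 16.6 and 10.6 CPM. Wisp2 fell by 2.19 on the log2 scale (SE 0.42), with an adjusted p = 0.0303 by edgeR's quasi-likelihood test with Benjamini-Hochberg adjustment. Its lowest library held 29 counts. The edgeR adjusted p was above the threshold of 0.05 without B6 control replicate 1 (0.0519) or 7 (0.0672), without MK801 replicate 2 (0.0696), 3 (0.0641) or 4 (0.0702), and when the 2 groups were fitted alone (0.0922).

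The count of members called in the MK801 comparison depended on the test: DESeq2's Wald test placed 11 members lower and edgeR with a term for the GC trend, a fit chosen after seeing the data, placed 8 lower, with 0 higher in both. Over all genes these fits also called more: 536 and 264 lower and 105 and 119 higher, where the main fit had 76 lower and 24 higher. The 10 that DESeq2 called beside Wisp2 were Bgn, Col1a2, Dcn, Fbln2, Loxl1, Lum, Mfap4, Mfap5, Pdgfra and Sparc. With the GC covariate the adjusted p by edgeR was 0.00925 for Bgn and for Sparc and 0.0184 for Dcn.

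Mfap4 encodes a protein of elastic fibres and microfibrils. It measured 8.83, 8.49, 1.24, 2.75 and 1.10 CPM in MK801 replicates 1 to 5, and 6.54, 16.6 and 49.9 CPM as the lowest, median and highest B6 control. Its log2 fold change was -2.29 (SE 0.63, edgeR adjusted p = 0.104). Replicates 1 and 2 lay inside the control range and replicates 3 to 5 below it. Mfap5, another microfibril protein, had a log2 fold change of -1.85 (SE 0.45) and Fbln2, a fibulin, -1.86 (SE 0.45), with edgeR adjusted p-values of 0.0753 and 0.0754. Fbln1, the other fibulin on the list, stood at 14.1, 10.9, 46.4, 34.8 and 19.9 CPM after MK801 against a B6 median of 15.5 CPM, and its log2 fold change was 0.36 (SE 0.45). It was the only fibroblast and matrix gene with a value above 0.

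Proteoglycans of collagen fibrils gave like values. Dcn (decorin) measured 26, 31.1, 25.1, 20.9 and 28 CPM in the MK801 libraries, a narrow band, against a B6 range of 25.6 to 288 CPM with a median of 54.3. Its log2 fold change was -1.99 (SE 0.53, edgeR adjusted p = 0.0974), and the band overlapped the lowest B6 control. Lum (lumican) and Bgn had log2 fold changes of -1.50 (SE 0.49) and -1.39 (SE 0.42). Sparc measured 406, 550, 571, 315 and 268 CPM after MK801, and 627, 782 and 1330 CPM as the lowest, median and highest B6 control. The groups did not overlap for Sparc, and its log2 fold change was -1.10 (SE 0.28, edgeR adjusted p = 0.0858). Separate groups, with the MK801 libraries below, were seen for 3 members (Wisp2, Sparc and Col1a2), against 1.14% of all genes.

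Adhesive glycoproteins, cross-linking enzymes and surface markers of fibroblasts completed the class. Fn1 (fibronectin), Postn (periostin) and Tnc (tenascin C) had log2 fold changes of -1.08, -0.93 and -0.22. For the lysyl oxidases, which cross-link collagen and elastin, Loxl1 was at -1.62 (SE 0.48) and Lox at -0.96 (SE 0.56). Pdgfra, the PDGF receptor that marks fibroblasts, was at 3.96, 3.36, 1.47, 3.38 and 0.723 CPM after MK801 and at 1.5, 6.88 and 19.8 CPM as the lowest, median and highest B6 control (log2 fold change -1.93, SE 0.63, edgeR adjusted p = 0.173). The 2 groups overlapped through B6 control replicate 5, which was the lowest B6 control for 12 of the 17 genes of the class. Thy1, a surface glycoprotein, and Fap, a surface protease of activated fibroblasts, had log2 fold changes of -0.98 and -0.97.

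**Figure D3:**
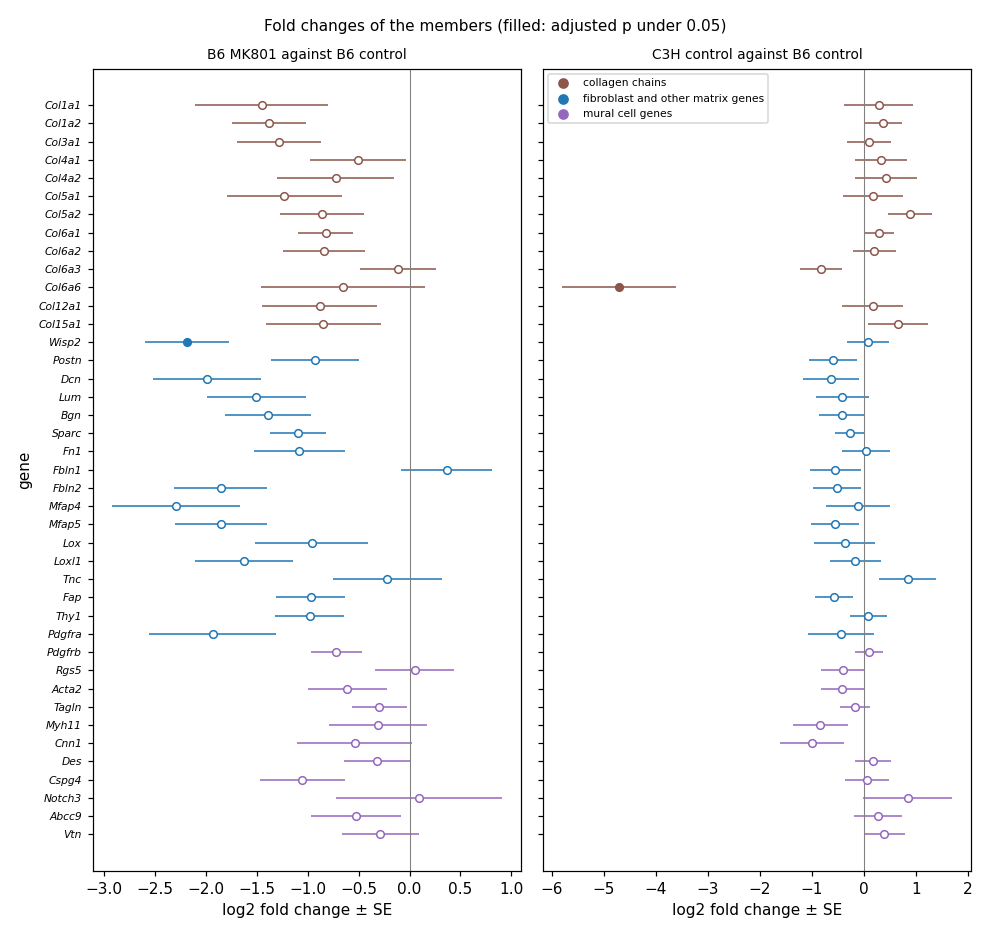
Points give the log2 fold change of each member and bars its SE, with MK801 against B6 control on the left and C3H control against B6 control on the right; the horizontal axes differ in range, colour gives the class, and filled points passed an adjusted p of 0.05. Wisp2 on the left (-2.19) and Col6a6 on the right (-4.71) are the only filled points.

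Among collagens, the fibrillar chains of types I, III and V had a median log2 fold change of -1.28 after MK801. Col1a2 measured 68.5, 57.4, 57.5, 98.8 and 19.3 CPM in MK801 replicates 1 to 5 and 107, 127 and 257 CPM as the lowest, median and highest B6 control. All MK801 libraries were below all B6 controls, with a log2 fold change of -1.38 (SE 0.36, edgeR adjusted p = 0.0974). Col1a1 was at -1.45 (SE 0.65), Col3a1 at -1.28 (SE 0.41) and Col5a1 at -1.23 (SE 0.56), and their groups overlapped. MK801 replicate 4 was the highest of its group in 9 of the 13 chains and replicate 5 the lowest in 9.

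The basement membrane chains Col4a1 and Col4a2 had log2 fold changes of -0.50 (SE 0.47) and -0.73 (SE 0.57), and Col15a1, a collagen at the border of the basement membrane, -0.85 (SE 0.56). Of the microfibrillar type VI chains, Col6a1 and Col6a2 were at -0.82 and -0.84, while Col6a3 was at -0.11 and Col6a6 at -0.65. Col6a3 ran from 43.8 to 92.6 CPM after MK801 and from 43.2 to 156 CPM in B6 controls, and its groups overlapped.

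Mural genes split by gene in the MK801 comparison, and 0 of 11 passed the test. Pdgfrb, the PDGF receptor of pericytes, measured 17.6, 21.7, 29.8, 20.8 and 19.4 CPM after MK801 and 18.1, 40.5 and 45.2 CPM as the lowest, median and highest B6 control. Only B6 control replicates 1 and 6 lay within the MK801 range, and the log2 fold change was -0.72 (SE 0.25, edgeR adjusted p = 0.213). Cspg4 was at -1.05 (SE 0.41) and Abcc9, a potassium channel subunit of pericytes, at -0.53 (SE 0.44). Rgs5 ran from 144 to 301 CPM after MK801 and from 59.5 to 313 CPM in B6 controls (log2 fold change 0.05, SE 0.39), and Notch3 stood at 0.09 (SE 0.81).

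The contractile genes of smooth muscle, Acta2, Tagln, Myh11 (smooth muscle myosin) and Cnn1 (calponin), had log2 fold changes of -0.61, -0.30, -0.31 and -0.54. Myh11 measured 49.4, 58.9, 44.1, 41.8 and 146 CPM in MK801 replicates 1 to 5. Replicate 5, lowest for most fibroblast genes, was thus the highest of its group here, and it was so in 6 of the 11 mural genes. The muscle filament gene Des (desmin) and Vtn (vitronectin, an adhesive protein that pericytes make) were at -0.32 and -0.29. The signs of Cnn1, Myh11, Notch3, Rgs5 and Tagln changed in 2 to 5 of 25 alternative analyses.

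**Figure D4:**
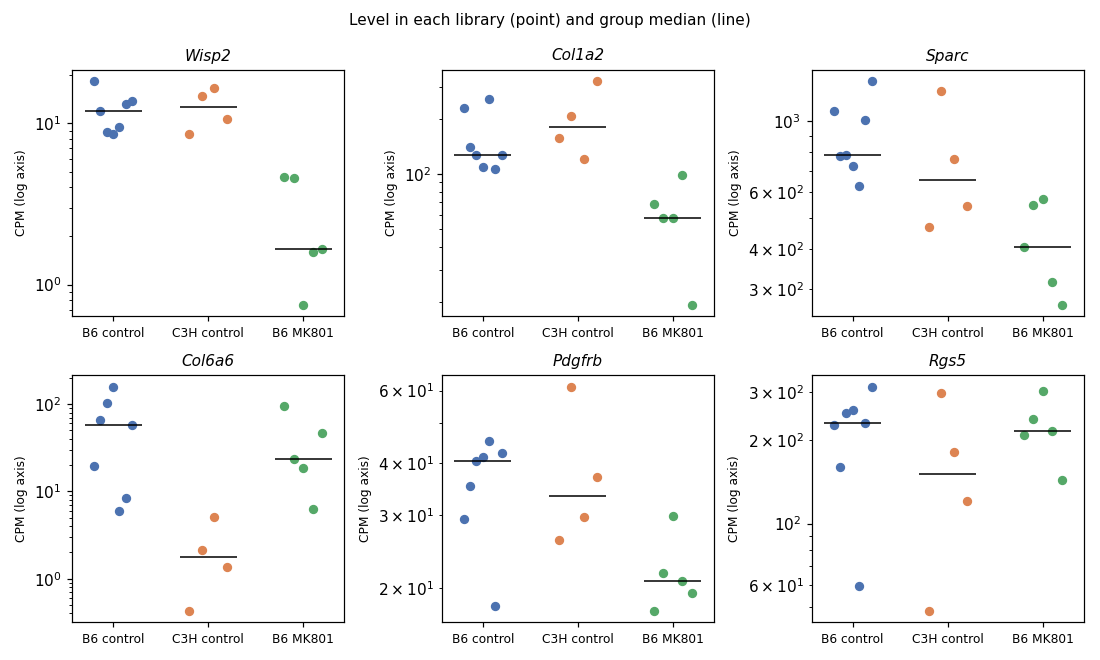
Each panel shows the CPM of a gene in every library (points, log axis) with the median of each group (line). The MK801 points of Wisp2, Col1a2 and Sparc lie below all B6 points, those of Rgs5 lie among them, and the C3H points of Col6a6 lie below every other library.

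Lists of related genes that were not members gave the following counts for MK801. The lists were chosen with earlier results of these data known, so their counts are not independent support. Of 28 further fibroblast genes tested, 0 passed the edgeR test and 27 were below 0, against 53.7% of all genes. Their median log2 fold change was -1.17, beside -0.03 for all genes. Clec3b (tetranectin) was at -3.40 (SE 0.77, edgeR adjusted p = 0.0587) and Dpt (dermatopontin, a matrix protein) at -2.32 (SE 0.53, edgeR adjusted p = 0.0602). None of 23 genes of collagen processing, 19 of the basement membrane, 23 of TGF-beta, PDGF and Notch signalling, 21 matrix receptors or 20 further mural genes passed, and their medians ran from -0.51 for the basement membrane to -0.19 for the receptors. At an unadjusted p under 0.05, 19 of the 28 further fibroblast genes were lower and 0 higher, against 8.5% and 3.5% of all genes.

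Of the markers of other cell types, 0 of 8 for lymphocytes, 0 of 8 for macrophages and 0 of 10 for endothelial cells passed the test. At an unadjusted p under 0.05 the edgeR test put 8, 7 and 2 lower and 0 higher, against 8.5% and 3.5% of all genes. Every marker of these 3 lists was below 0, as were 53.7% of all genes. Their median log2 fold changes were -1.90, -0.70 and -0.55. The 3 adipocyte markers tested and 4 of 7 beta cell markers were above 0. Lymphocyte markers summed to 1.08 to 4.52 CPM after MK801 and 5.47 to 12.5 CPM in B6 controls, and the groups did not overlap. Macrophage markers summed to 376 to 689 CPM against 624 to 1052 CPM and endothelial markers to 264 to 513 CPM against 317 to 731 CPM, both with overlap. None of the 8 lymphocyte, 8 macrophage and 10 endothelial markers was at 0 in these libraries. Acinar markers, from the surrounding pancreas, ran from 337 to 9613 CPM after MK801 and from 27.7 to 27391 CPM in B6 controls. The part of these cells, or of base composition, in the values of the members was not tested beyond the GC covariate given above. With the 10 acinar genes left out of the fit 1 member was again called lower. Leaving them out keeps the counts of the members as they were, so it cannot test the part of acinar cells. By median log2 fold change the 6 ductal and 5 mesothelial markers stood at -1.38 and -1.05, and 0 of either list passed the test. Mesothelial and adipocyte markers were low, with sums of 0.29 to 10.1 and 0.61 to 7.82 CPM in B6 controls.

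Between the strains, Col6a6 was the single member that passed the test. In C3H controls 1 member was lower than in B6 controls and 0 were higher, where 1.52% of all genes were lower and 0.883% higher (2.4% in either direction). At an unadjusted p under 0.05 the counts were again 1 lower and 0 higher, against 8.93% and 4.91% of all genes. The fold change was above 0 for 21 members and below 0 for 20, against 47% and 53% of all genes, and the groups did not overlap for 1, Col6a6, which was lower as were 2.37% of all genes. The median log2 fold change was 0.28 for collagen chains, -0.42 for fibroblast and matrix genes and 0.06 for mural genes, beside -0.03 for all genes. Single libraries moved these medians by over 1.5 times. That of the collagens was 0.0042 without C3H control replicate 4, and 0.14, 0.55 and 0.18 without B6 control replicates 4, 5 and 6. That of the fibroblast genes was -0.12 without C3H control replicate 1, and -0.22 and -0.17 without B6 control replicates 1 and 7. That of the mural genes ran from -0.25 without C3H control replicate 2 to 0.20 without C3H control replicate 3, and was below 0 also without C3H control replicate 4 or B6 control replicate 1 or 6. With the GC trend as a covariate the medians became 0.06, 0.13 and -0.02, so the sign of the fibroblast and of the mural median changed. Macrophage markers summed to 622 to 795 CPM, lymphocyte markers to 5.10 to 10.03 CPM and endothelial markers to 448 to 917 CPM in C3H controls, and all 3 ranges overlapped those of the B6 controls given above.

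Col6a6 encodes a chain of type VI collagen that can take the place of Col6a3. It measured 0.430, 2.15, 5.14 and 1.37 CPM in C3H controls, from 17, 96, 220 and 71 counts, and 5.95, 57.9 and 158 CPM as the lowest, median and highest B6 control. All C3H libraries were below all B6 controls, and the MK801 libraries, also of B6 background, were at 94.4, 23.2, 18.7, 6.35 and 46.6 CPM, above the C3H range. The log2 fold change was -4.71 (SE 1.09), with an adjusted p = 0.0305 by edgeR's quasi-likelihood test. The edgeR adjusted p was above the threshold of 0.05 without B6 control replicate 3 (0.0511), without C3H control replicate 1 (0.0840), 2 (0.108) or 4 (0.102), and with the 2 groups alone (0.0593). By limma-voom the adjusted p was 0.154. Among its neighbouring type VI genes, Col6a5 overlapped between strains (0.651 to 9.29 CPM in B6 and 0.861 to 4.09 CPM in C3H), and Col6a4 did so too (0.0986 to 24.9 and 0.0701 to 2.05 CPM). Reads shared between these related genes could be split between them in the counting, and this was not tested.

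The 250 bases before the start of Col6a6, the only member called between the strains, are shown as RefSeq gives them on GRCm38.p6 (chr9:105828086-105828335, minus strand, 5′ to 3′). Of all genes, 2.4% were called in that comparison. Capitals mark the sequence GGGCGG read on either strand, which occurs 2 times.
Col6a6: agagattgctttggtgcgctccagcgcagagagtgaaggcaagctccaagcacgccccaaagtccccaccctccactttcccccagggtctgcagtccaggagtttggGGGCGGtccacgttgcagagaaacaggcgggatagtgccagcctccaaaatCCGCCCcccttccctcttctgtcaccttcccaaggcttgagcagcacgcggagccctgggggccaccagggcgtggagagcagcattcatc
Of all 32851 promoter windows in that table, 35.66% hold GGGCGG, as do 14 of the 25 members that have a window, and a match is a description only.

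All 5 fibrillar chains had a higher mean in C3H controls, with log2 fold changes from 0.09 to 0.88, but 0 passed the test. Col5a2 was at 53.0, 57.9, 34.8 and 105 CPM against 18.0, 30.8 and 64.4 CPM as the lowest, median and highest B6 control, with a log2 fold change of 0.88 (SE 0.42, edgeR adjusted p = 0.373). The signs of Col1a1, Col3a1 and Col5a1 changed in 4, 6 and 4 of 24 alternative analyses. Col6a3 stood at -0.83 (SE 0.41) and Cnn1 at -1.0 (SE 0.62), and neither passed. C3H control replicate 1 was the lowest of its group in 15 of the 17 fibroblast and matrix genes. Of the related lists, P4ha3, an enzyme that hydroxylates proline in collagen, was the only gene that rose: it measured 3.62, 11, 6.94 and 5.11 CPM in C3H controls and 0.659 to 2.49 CPM in B6 controls (log2 fold change 2.07, SE 0.50, edgeR adjusted p = 0.0383). That call was lost without any of C3H control replicates 2, 3 and 4 or B6 control replicates 2, 3, 4, 5 and 7.

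C3H controls were also set against the MK801 libraries, where strain and treatment differ together and cannot be told apart; each group also stands in a comparison above. Here 4 members were higher in C3H controls and 1 was lower, where 3.07% of all genes were higher and 2.86% lower (5.93% in either direction). The 4 were Wisp2, with a log2 fold change of 2.26 (SE 0.45, edgeR adjusted p = 0.00758), Col1a2 at 1.74 (SE 0.40, 0.0172), Col5a2 at 1.74 (SE 0.47, 0.0374) and Col6a1 at 1.11 (SE 0.30, 0.0405). Col6a6 was the lower one, at -4.06 (SE 1.07, edgeR adjusted p = 0.0358). At an unadjusted p under 0.05, 20 members were higher and 1 lower, against 9.99% and 10% of all genes. Of the 41, 35 were above 0 and 6 below, against 51.1% and 48.9% of all genes. The groups did not overlap for 4 members that were higher (Wisp2, Col1a2, Col5a2 and Mfap4), against 5.7% of all genes, and for 1 that was lower (Col6a6), against 6.37%.

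Deviations of same-numbered libraries correlated at 0.137 to 0.37 in the 4 pairs of this contrast. The 16 unlike-numbered pairs ran from -0.35 to 0.383, which covers that range. Of the 4 C3H libraries, 2 correlated best with their own number. The replicate number is thus not shown to mark a pairing, and the fit with it as a block is given as an alternative. That fit left Wisp2 as the only member called (edgeR adjusted p = 0.0330), with 0.0517 for Col1a2, 0.0581 for Col5a2, 0.0771 for Col6a1 and 0.0802 for Col6a6. Over all genes the block fit placed 453 higher and 416 lower, where the main fit placed 493 and 460. Without C3H control replicate 4 only Wisp2 was called higher, and without C3H control replicate 2 or MK801 replicate 1 or 2 the number called higher was 2. Col6a6 lost its call without C3H control replicate 1, 2 or 4 and without MK801 replicate 1, 2, 3 or 5. Of the related lists, 4 of 23 genes of collagen processing were higher (P4ha3, Serpinh1, Crtap and Adamts2), 2 of 23 of the signalling list (Tgfbr2 and Ltbp2), and 5 of 28 further fibroblast genes (Fmod, Prelp, Cygb, Clec3b and Thbs2), while Omd was lower. With the block, P4ha3, Serpinh1, Ltbp2, Cygb and Clec3b were still called and the other 7 genes were not, and over 22 alternatives Crtap was called in 7, Omd in 10, Adamts2 in 11, Thbs2 in 12 and Tgfbr2 in 15. Serpinh1, the collagen chaperone HSP47, had a log2 fold change of 1.01 (SE 0.23, edgeR adjusted p = 0.0177).

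Markers of other cell types were also called higher in C3H controls than after MK801: 2 of 8 for macrophages, 1 of 10 for endothelial cells and 0 of 8 for lymphocytes. C1qa, a complement gene of macrophages, had a log2 fold change of 0.87 (SE 0.19, edgeR adjusted p = 0.0121) and was called in all 22 alternatives. Fcgr1, an Fc receptor of macrophages, was at 1.31 (edgeR adjusted p = 0.0341, called in 16 of 22) and Cldn5, a tight junction gene of endothelial cells, at 1.62 (edgeR adjusted p = 0.0207, called in 17 of 22). The summed ranges given above overlapped between the groups for macrophage and endothelial markers, and did not for lymphocyte markers. Their part in the values of the members was not tested.

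Across the 16 libraries, with the mean of each group removed, the members varied in blocks that partly followed their classes. The rank correlation (Spearman rho, given as a description) between log2 CPM of pairs had a median of 0.66 within the fibroblast and matrix genes, 0.515 within the collagen chains and 0.182 within the mural genes. Between classes the medians were 0.094 for collagens with fibroblast genes, -0.065 for collagens with mural genes and -0.003 for fibroblast with mural genes. Points share depth and base composition: the mean of the fibroblast and matrix genes had a rho of -0.65 with the GC trend and that of the collagen chains 0.497. After a term for the GC trend the medians within classes were 0.507, 0.584 and 0.312, and that of collagens with fibroblast genes was 0.476.

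**Figure D5:**
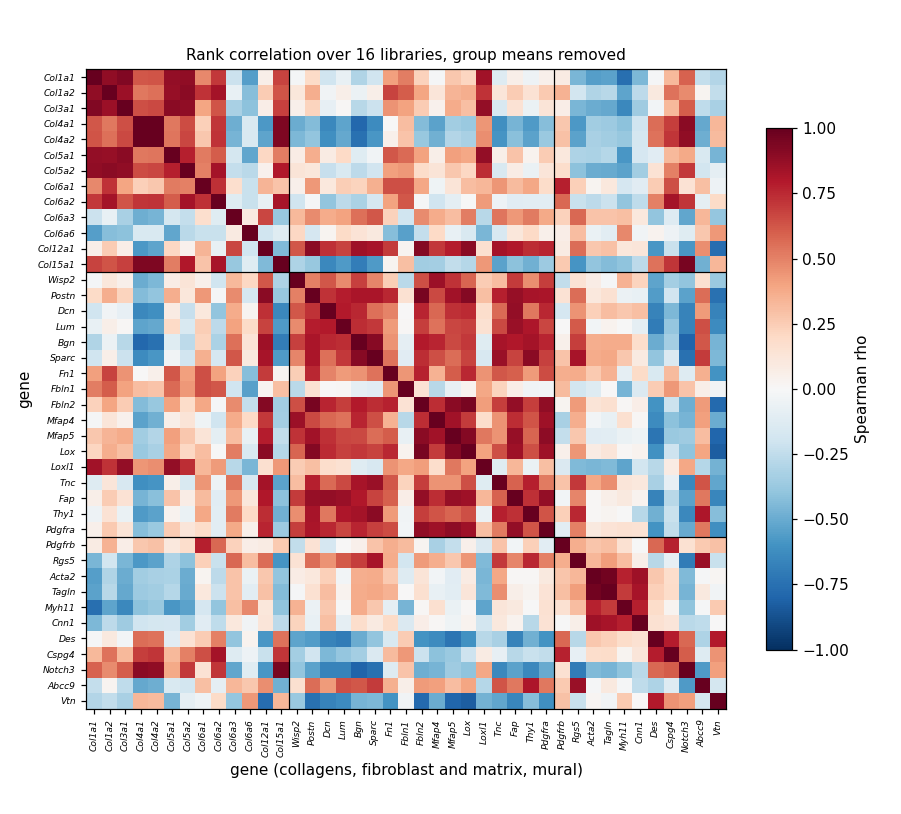
Colour gives the Spearman rho of each pair of members over 16 libraries after group means were removed, with lines between the 3 classes. The fibroblast and matrix block is the most uniform (median 0.66), the type I, III and V chains form a block at the upper left, and Acta2, Tagln, Myh11 and Cnn1 form a small block among the mural genes.

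The closest pair was Col4a1 and Col4a2, chains of the same basement membrane collagen, with a rho of 0.994 and 0.929 after the GC term. The genes lie on opposite strands, and at the RefSeq starts their 5′ ends overlap by 22 bases, which both genes transcribe. This stretch is printed because of that rho, as a description only. The 38 bases are from GRCm38.p6 (chr8:11312797-11312834, plus strand). Capitals mark the 22 bases from the start of Col4a2 (11312805, plus strand) to that of Col4a1 (11312826, minus strand).
Col4a1-Col4a2: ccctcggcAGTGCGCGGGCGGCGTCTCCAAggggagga
The 300-base windows of both genes overlap by 78 bases. The ratio of counts of Col4a1 to Col4a2 stayed within 1.48 to 2.48 in B6 controls (mean 1.98 ± 0.32, SD, n = 7). It averaged 1.70 ± 0.17 (SD, n = 4) in the C3H group and 2.17 ± 0.34 (SD, n = 5) in the MK801 group, so the ranges overlapped.

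The contractile genes varied together, while the pericyte genes did so only in part. Acta2 and Tagln had a rho of 0.965, and Acta2 with Cnn1 0.847 and with Myh11 0.771. Rgs5 went with Abcc9 at 0.865 (0.674 after the GC term) and Pdgfrb with Cspg4 at 0.768 (0.859 after it). The member nearest to Pdgfrb was Col6a1, at 0.776. Rgs5 with Pdgfrb was at 0.362 (0.509 after the GC term), and Rgs5 with Acta2 at 0.332 (-0.032 after it). The upstream bases of Acta2, the gene nearest to the others of the contractile block, are given from RefSeq on GRCm38.p6 (chr19:34255374-34255623, minus strand, 5′ to 3′). Capitals mark the CArG box, the site read by serum response factor, in a form with up to 1 other base in its core, which was found 2 times.
Acta2: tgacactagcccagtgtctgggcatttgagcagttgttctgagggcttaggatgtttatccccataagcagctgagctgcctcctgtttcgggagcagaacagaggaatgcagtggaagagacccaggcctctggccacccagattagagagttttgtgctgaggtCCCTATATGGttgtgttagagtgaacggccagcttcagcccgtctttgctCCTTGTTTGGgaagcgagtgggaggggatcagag
That form occurs in 9.98% of 32851 windows and in 4 of 25 members with a window (Acta2, Col1a2, Col6a3 and Fbln2), and the strict form in 1.63% of windows and 0 members; a match is a description only.

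Other pairs followed function in part. Col1a1 with Col3a1 had a rho of 0.926, and Col1a2 with Col5a2 0.906, while the ratio of Col1a1 to Col1a2 counts averaged 0.283 ± 0.14 (SD, n = 7) in B6 controls and 0.264 ± 0.13 (SD, n = 5) after MK801. Postn with Fbln2 and Lox with Fbln2 were both at 0.953, and Wisp2 was nearest to Mfap4 at 0.853. The cross-linking enzyme Loxl1 sat with the fibrillar collagens, nearest to Col3a1 at 0.882. Col12a1, a collagen that attaches to fibrils, sat with the fibroblast genes, nearest to Fbln2 at 0.915. Both Col12a1 and Fbln2 also had a negative rho with the GC trend, at -0.694 and -0.624. For Loxl1 and Col3a1 the rho with the GC trend was 0.218 and 0.432. Notch3 was nearest to Col15a1 at 0.953, which was 0.606 after the GC term, and each of these 2 genes had a high rho with the GC trend, at 0.932 and 0.882. The mean of the mural genes had a rho of 0.912 with the further mural genes, 0.612 with the mesothelial markers and 0.606 with the endothelial markers. The mesothelial markers were near the floor: they summed to 0.29 CPM in the lowest library and 10.4 CPM in the highest. Up to 2 of these 5 were at 0 in a library. That of the fibroblast genes had 0.885 with the further fibroblast genes, 0.553 with the macrophage markers and -0.424 with the acinar markers. For the collagen chains the rho farthest from 0 among the lists of other cell types was -0.321, with the adipocyte markers, and it was 0.712 with the basement membrane list.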

How the data were processed

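The sequencing libraries, of polyA RNA, were prepared by TruSeq (Illumina), per the labels' protocols. The authors deposited estimated counts per gene, which are not whole and not normalized, and a normalized table, a signal that is used in an alternative only. The submitters' processing notes name mm9, RSEM 1.2.12 and Bowtie 1.0.1 without roles. Not given in the sources used here: annotation, filters, strandedness and how the normalized signal was derived.

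Estimated counts were rounded, then fitted by edgeR 4.0.16 (R 4.3.3). Genes were kept by filterByExpr (16084 of 23224), scaled by TMM, and tested in a quasi-likelihood fit of all 16 libraries in 3 groups, with Benjamini-Hochberg adjustment over all genes tested and a threshold of 0.05. SE is the size of the log2 fold change divided by the root of the F statistic. CPM are per 1e+06 counts, with a prior count of 2 on the log2 scale. All columns were matched to samples by title. Libraries of a group differed beyond sampling noise (the smallest chi-square was 116.6 per degree of freedom).

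Members and gene lists were chosen with earlier results of these data known. All 41 members are named whatever their p, with, for other lists, genes past the threshold, up to 4 with the smallest p per comparison, and for cell types the summed level; Clec3b and Dpt for MK801, and the further called genes of the C3H against MK801 contrast, were named after their values were seen. For GC content and length the longest transcript per symbol in GENCODE M21 (GRCm38, another build than that of the files) was used, and 98.6% of genes tested had one. Promoters came from RefSeq on GRCm38.p6, by symbol, for 25 of 41 members.

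Replicate numbers were checked by correlating the deviations of same-numbered libraries from their group means. The 4 pairs of C3H controls and MK801 libraries gave 0.137 to 0.37, while the 16 unlike-numbered pairs gave -0.35 to 0.383. The labels do not say what a number marks. Alternatives were DESeq2 1.42.0 size factors and Wald test, upper-quartile factors, library totals alone, voom with limma 3.58.1, limma on the authors' normalized values, other filters, the 2 groups alone, the replicate block, acinar genes removed, a threshold of 0.1, and leaving out each library. The scripts were tested on simulated data.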

Additional observations from a re-analysis of the deposited data

Results flagged for a closer look

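In 123 combinations of a member and a group, 5 single libraries stood apart from the rest of their group on the log2 scale. Chance sets apart about 5% of groups, so this number is no more than chance would give. Dcn was at 25.43 CPM in C3H control replicate 1, with the other C3H controls from 71.25 to 87.68 CPM. Fap was at 1.469 CPM in the same library, with the others from 2.992 to 3.365 CPM. Thy1 was at 34.02 CPM in B6 control replicate 1, above 10.81 to 17.47 CPM in the other B6 controls. Rgs5 was at 59.48 CPM in B6 control replicate 5, below 159.6 to 313.2 CPM in the others. Myh11 was at 146.1 CPM in MK801 replicate 5, above 41.79 to 58.89 CPM in the other MK801 libraries.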

How the results depend on the processing

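No called value changed sign under the alternatives run, but values that were not called did: 22 of 41 members in at least 1 alternative for C3H against B6 controls, 6 for MK801 and 3 for C3H against MK801, beside the strain medians of fibroblast and mural genes. For C3H against B6 controls, the counts over all genes (142 higher and 244 lower) were 262 and 527 by DESeq2's Wald test, 65 and 97 with the replicate block, and 82 and 116 with the GC covariate and block; 129 were lower with the 2 groups alone and 383 at a threshold of 0.1. Leaving out a library gave 94 to 179 higher and 112 to 294 lower. The 1 member that was lower became 0 by limma-voom, with the 2 groups alone, with the block and with GC and block, and was 0 to 1 over left-out libraries.

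For MK801 (24 higher and 76 lower) the counts were 105 and 536 by the Wald test, 7 and 3 with the 2 groups alone, 1 and 0 with the replicate block, 50 and 255 at a threshold of 0.1, and 119 and 264 with the GC covariate. Of genes that were lower, 157 were called on the authors' normalized values, 46 with no filter and 196 with GC and block. Leaving out a library gave 2 to 37 higher and 2 to 165 lower. The 1 member that was lower became 11 by the Wald test, 2 on the normalized values, 0 with the 2 groups alone, 0 with the block, 6 at 0.1, 8 with GC and 4 with GC and block, and was 0 to 1 over left-out libraries.

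For C3H against MK801 (493 higher and 460 lower) the counts were 869 and 810 by the Wald test and 787 and 735 at 0.1, and 750 were higher with GC. Leaving out a library gave 254 to 512 and 197 to 458. Of members, 4 higher became 2 with library totals alone, 1 with the block and 13 with GC, and 1 lower became 0 by limma-voom, with the block and with GC and block; left-out libraries gave 1 to 4 and 0 to 1. In the strain and MK801 comparisons same-numbered pairs had correlations of -0.312 to -0.002 and -0.164 to 0.114. Numbers were not taken as pairs in the main fit of any comparison. With the block, Wisp2 was at 0.0881 and Col6a6 at 0.122 (edgeR adjusted p) where they had been called against B6 controls. The cause of these changes was not tested. The depth of 38561334 counts or more leaves members with few counts, such as Wisp2 with 29 in its lowest library, less precise.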
